A study of Mus musculus with 16 samples.

Results

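The transcripts described here are those of 7 effector cytokine genes of T cells: Ifng, Tnf, Il2, Csf2, Csf1, Lta and Fasl. They were chosen by name, each matched 1 row of the count tables, and they are 7 of 24469 gene symbols. They were followed in all 16 libraries, in CD8 T, CD4 T, NK and macrophage cells gated on UMIs, the molecule counts of droplet sequencing. These 4 classes held 25185 of the 37453 cells kept.

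The series asked how loss of *Aire* and PD1 blockade act together on immune cells of MC38 tumors in C57BL/6 mice. *Aire*+/+ and *Aire*-/- mice, 8 weeks old, carried MC38 tumors and were given anti-PD1 or isotype antibody at 5 mg/kg. Tumors and spleens were taken on day 19, and CD45+ or CD8+ cells were sorted from each. Each library came from 1 pool of animals, 4 to 6 tumors in the tumor libraries and pooled spleens in the others. There was 1 library for each of the 4 conditions in each tissue and sort, so that no replicate shows how far 2 pools of 1 condition differ, and the intervals given are 95% intervals for counting error only.

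Activated CD8+ T cells kill target cells and secrete cytokines that act on neighbouring cells. Interferon gamma raises antigen presentation and chemokine output in macrophages, the TNF family members Tnf, Lta and Fasl act through death and inflammatory receptors, and Csf1 and Csf2 feed myeloid cells. Il2 supports T cell growth and is transcribed in short bursts after antigen contact.

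The gates held their own defining genes. In the tumors, summed over libraries, Cd3e reached 1395 CPM (UMIs of the gene per 1e6 UMIs of the class) in CD8 T cells and 0.367 CPM in macrophages. Cd3e is counted in both gates, so this contrast was set by them and is no check of them. Apoe, a macrophage transcript outside the gate, stood at 2861 CPM in macrophages and 5.36 CPM in CD8 T cells. A CD4 T cell without a Cd4 UMI could not pass the gate, so the 978 CD4 T cells that passed may be only a part of them. How many went ungated was not measured. CD8 T cells numbered 20859, NK cells 912 and macrophages 2436. Aire itself gave 0 to 6 UMIs per library, too few to check the genotype labels.

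In whole CD45+ tumor suspensions the 7 genes divided by source. CD8 T cells held most of Ifng, with 78.0% of its UMIs in *Aire*+/+ isotype, 82.9% in *Aire*+/+ anti-PD1, 83.1% in *Aire*-/- isotype and 87.3% in *Aire*-/- anti-PD1 tumors. NK cells held 18.0%, 10.2%, 10.5% and 10.6% in the same order, which is the order of conditions used for every set of 4 values that follows. Interferon gamma transcripts were therefore mainly those of CD8 T cells in each of the 4 tumors.

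Tnf came mainly from myeloid cells. Macrophages held 55.1%, 57.9%, 47.6% and 21.6% of its UMIs, and other myeloid cells 29.7%, 28.9%, 35.7% and 42.9%. The CD8 T cell share of Tnf was 1.52%, 1.07%, 3.06% and 18.3%. Cell numbers differed as well: the *Aire*-/- anti-PD1 library held 708 CD8 T cells and 167 macrophages, against 127 and 1046 in *Aire*+/+ isotype. Their part in the share was not tested.

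Fasl, the ligand of the death receptor Fas, was shared between both killer lineages. CD8 T cells held 34.7%, 48.9%, 47.1% and 64.7% of it, and NK cells 36.1%, 32.7%, 35.0% and 22.9%. Csf1, the macrophage growth factor, had a CD8 T cell share of 20.9%, 56.2%, 55.8% and 73.8%, and other myeloid cells held 27.2%, 9.69%, 13.3% and 4.41%. Tumor Csf1 transcripts thus lay mostly outside the macrophages, which held 13.9%, 5.03%, 8.06% and 0.291%. Lta, lymphotoxin alpha, lay in CD8 T cells for 42.2%, 50.3%, 60.8% and 65.9% and in NK cells for 33.8%, 22.2%, 17.5% and 14.4%. A share of a whole suspension moves both with the number of cells of a class and with the transcripts per cell, and levels within gated cells follow for that reason.

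**Figure D1:**
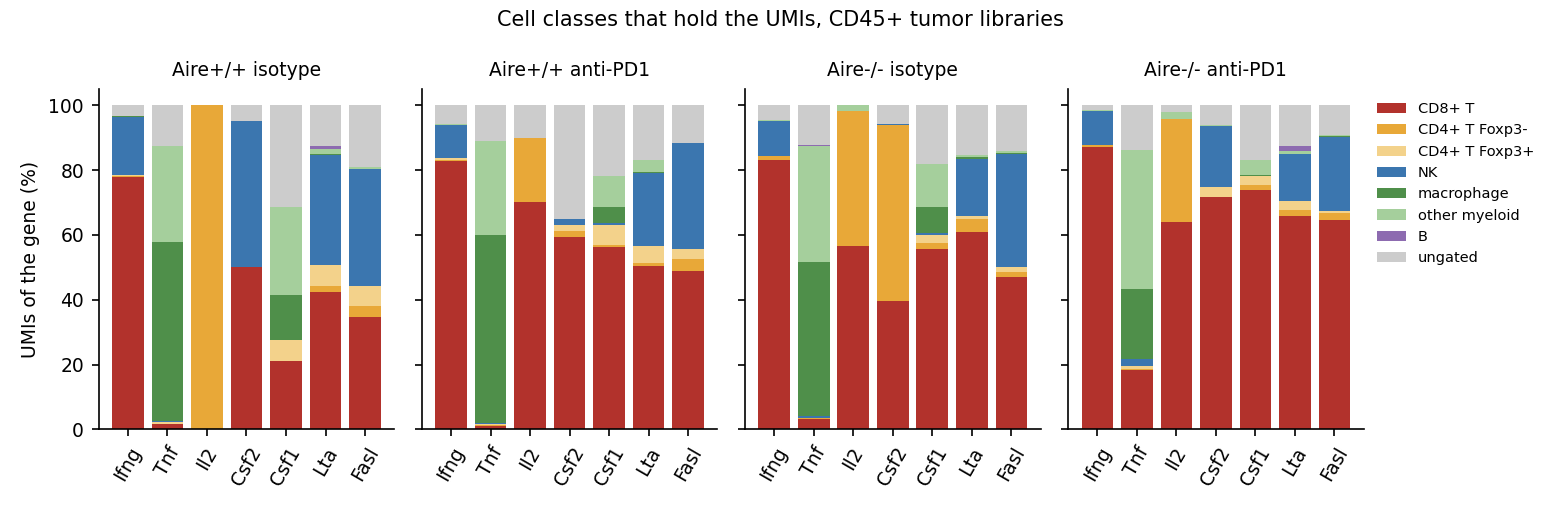
Share of the UMIs of each gene, in percent, that lay in each gated cell class of the CD45+ tumor libraries, 1 stacked bar for each gene and 1 panel for each condition. The Il2 bars stand for 1, 10, 53 and 47 UMIs, CD8 T cells held 78.0% to 87.3% of Ifng, whereas macrophages and other myeloid cells held most of Tnf.

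Within CD8 T cells, tumor residence separated the 7 genes from their splenic levels. In CD8+-sorted cells Ifng stood at 731, 539.8, 722 and 657 CPM in tumors and at 4.23, 5.91, 5.29 and 6.17 CPM in spleens, 124-fold apart for the pooled tissues. Csf2, which encodes GM-CSF, stood at 30.4 to 61.0 CPM in tumors and 0.274 to 0.331 CPM in spleens. Every tumor value of these genes lay above every splenic value.

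Csf1 ranged from 169 to 265 CPM in tumors and 1.27 to 5.98 CPM in spleens, and Fasl from 190.1 to 234 CPM and 5.55 to 12.9 CPM. Tnf and Lta, 6.63-fold and 5.10-fold higher in tumors, had splenic levels of 7.03 to 8.29 CPM and 10.2 to 13.8 CPM. Il2 stood at 2.59 to 38.1 CPM in tumors and 0.463 to 0.793 CPM in spleens. All 7 genes were higher in the 4 tumor libraries without overlap, where 37.7% of 12689 genes were higher in that way. CD8 T cells of the CD45+ sort gave 6 of 7, with Il2 overlapping, against 26.5% of 10751 genes.

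The tissues are compared here at different depths, and the 4 values of a tissue are 4 conditions rather than replicates. Splenic CD8 T cells of the CD8+ sort had more Csf1 in *Aire*-/- mice, at 3.97 and 5.98 CPM against 1.27 and 1.42 CPM in *Aire*+/+ mice, and more Fasl, at 12.9 and 12.4 CPM against 5.55 and 6.45 CPM. In the CD45+ sort Csf1 did not keep this order: it was at 0, 8.63, 3.95 and 0.849 CPM, from 0, 8, 4 and 1 UMIs, and Fasl at 9.83, 4.32, 10.8 and 18.7 CPM, with *Aire*+/+ isotype and anti-PD1 first and *Aire*-/- isotype and anti-PD1 after them. Splenic B cells had Csf1 at 1.60 to 9.22 CPM and ungated spleen cells of the CD45+ sort at 22.2 to 63.5 CPM, and the part of free RNA in the splenic Csf1 was not tested. These splenic levels of CD8 T cells stayed far under those of any tumor.

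Lists of related genes were compared between tissues in the same way, where 37.7% of all genes were higher in tumor and 31.2% lower. Of 20 transcription factors of cytokine genes, 16 were higher in tumor CD8 T cells and 1, Eomes, a T-box factor of memory and effector cells, was lower. Of 9 factors that bind cytokine mRNA and affect its decay, Zfp36, Zfp36l1 and Zc3h12a were higher and Rc3h1 was lower. Of 13 receptor genes for the 7 ligands, 6 were higher, Ifngr1, Tnfrsf1b, Il2ra, Il2rb, Il2rg and Ltbr, and 3 were lower, Ifngr2, Tnfrsf1a and Fas. The decay factors and receptors were thus near the shares of all genes.

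Between conditions, Ifng was among the least changed of the 7 genes in CD8+-sorted tumor cells. Its level was 731 CPM (722 to 740.1), 539.8, 722 and 657 CPM. The lowest value belonged to *Aire*+/+ anti-PD1 and the highest pair to both isotype tumors. Between genotypes, *Aire*-/- over *Aire*+/+, the log2 ratio was −0.02 with isotype and 0.28 with anti-PD1, and that of anti-PD1 over isotype was −0.44 in *Aire*+/+ and −0.14 in *Aire*-/- mice. None of these 4 differences reached 1.5-fold.

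Ifng transcripts were spread over many cells with a steep top. After thinning each cell to 5000 UMIs, 59.7%, 54.3%, 51.7% and 53.2% of CD8 T cells had an Ifng UMI (69.6%, 67.2%, 63.1% and 62.1% without thinning, with 161, 103, 128 and 340 shallower cells left out). Macrophages of the CD45+ sort, which should lack the gene, gave 0.197%, 0%, 0.438% and 0.617% at the same depth. Those libraries held fewer CD8 T cells, so the part of free RNA in the CD8+-sorted shares was not measured. The same holds for the other genes set beside macrophages below. Median depth was 11002, 10218, 10103 and 8855 UMIs in the CD8 T cells and 14685, 15030, 14360 and 11574 UMIs in the macrophages. Of the Ifng UMIs, 50% lay in 125, 114, 45 and 64 cells, and the cell with most Ifng held 468, 345, 1256 and 698 UMIs.

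Fasl was the most evenly carried transcript. Its level was 190.1, 234, 212 and 231 CPM, and 50% of its UMIs took 521, 492, 384 and 443 cells. A Fasl UMI was found in 57.0%, 65.3%, 59.1% and 63.3% of thinned CD8 T cells (79.6%, 85.2%, 80.3% and 79.9% unthinned) and in 0.0985%, 0%, 0.219% and 0% of macrophages. The share of cells with Fasl was higher under anti-PD1 in *Aire*+/+ tumors, with a ratio of 1.15 (1.09 to 1.20).

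Csf1 in CD8 T cells rose with anti-PD1 in *Aire*+/+ tumors. Its level was 169, 265, 201 and 208 CPM, a log2 ratio of 0.65 (0.60 to 0.70) in *Aire*+/+ and 0.05 in *Aire*-/- mice. The *Aire*+/+ isotype tumor was the lowest and its anti-PD1 counterpart the highest. The share of cells with a Csf1 UMI, 41.5%, 50.6%, 47.1% and 46.4% (56.5%, 63.6%, 59.1% and 57.8% unthinned), moved the same way, by a ratio of 1.22 (1.14 to 1.30), which is under 1.5-fold. Macrophages gave 1.68%, 1.59%, 2.63% and 1.85%. The CD45+ sort gave 109, 215, 169 and 202 CPM, with a log2 ratio of 0.98 (0.71 to 1.2) in *Aire*+/+ mice.

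Lta was highest in the *Aire*+/+ isotype tumor. Its level was 79.9, 51.4, 54.0 and 53.4 CPM, so that 3 conditions lay within 3 CPM of each other. The log2 ratio was −0.57 (−0.67 to −0.47) for *Aire*-/- over *Aire*+/+ under isotype and −0.64 (−0.73 to −0.54) for anti-PD1 over isotype in *Aire*+/+ mice. Both rest on that 1 library. Of thinned cells, 21.1%, 16.2%, 16.3% and 15.4% had an Lta UMI (35.3%, 28.8%, 27.2% and 23.6% unthinned), a share ratio of 0.773 (0.676 to 0.884) for the genotypes under isotype, and no macrophage had one.

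In the CD8+ sort Tnf was highest in CD8 T cells of *Aire*-/- anti-PD1 tumors. Its level was 45.5, 43.7, 42.1 and 76.3 CPM. The other 3 conditions lay close together. The log2 ratio was 0.81 (0.70 to 0.91) over *Aire*+/+ under anti-PD1 and 0.86 (0.74 to 0.98) over isotype in *Aire*-/- mice. Without the 10 cells with most Tnf on each side the ratios were 0.93 and 0.92.

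More CD8 T cells carried Tnf in that condition. The thinned share was 13.0%, 14.4%, 14.2% and 20.3% (23.4%, 24.4%, 24.0% and 31.0% unthinned), a ratio of 1.41 (1.23 to 1.62) between genotypes under anti-PD1 and 1.44 (1.24 to 1.67) for anti-PD1 in *Aire*-/- mice, both under 1.5-fold. No class of tumor cells free of Tnf was large enough to serve as a background. NK cells of the CD45+ sort, at the same depth, had a Tnf UMI in 3.23%, 3.03%, 5.97% and 6.52%, and macrophages in 44.0%, 46.1%, 48.4% and 42.6%, so the part of free RNA in the CD8 T cell shares is not known. In the CD45+ sort Tnf in CD8 T cells stood at 60.8, 23.6, 50.3 and 58.1 CPM. The genotype difference under anti-PD1 was again upward there, at 1.30 (0.87 to 1.76), whereas anti-PD1 over isotype in *Aire*-/- mice was 0.21 (−0.08 to 0.51). Both sorts may have come from the same animals, which the labels do not state, so the CD45+ sort is not taken as an independent replicate.

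Immediate early genes, transcribed within minutes of stimulation, were set beside Tnf. Fos was at 258, 191, 200.2 and 306 CPM, Fosb at 69.8, 89.3, 71.0 and 113 CPM and Nr4a1 at 239, 397, 323 and 492 CPM in the same cells. These 3 had their highest value in the *Aire*-/- anti-PD1 tumor. Other immediate early genes of the same list did not: Jun was at 208, 184, 153 and 145 CPM, Junb at 1975, 2400, 2087 and 2241 CPM and Egr2 at 9.47, 8.19, 7.15 and 8.17 CPM. Of the 9 decay factors, 1 passed 1.5-fold for anti-PD1 in *Aire*-/- mice, Zfp36, which shortens the life of Tnf mRNA, at 209.6, 243, 194 and 336 CPM. Their part in the Tnf level was not tested. Of the 20 transcription factors, 0 passed 1.5-fold between genotypes under isotype (8.51% of all genes), 1 under anti-PD1 (Fos, 8.07%), 2 for anti-PD1 in *Aire*+/+ mice (Nr4a1 higher, Eomes lower, 6.69%) and 3 in *Aire*-/- mice (Fos, Fosb and Nr4a1, higher, 6.32%). As a list they were therefore near the share of all genes in the comparisons other than the last.

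**Figure D2:**
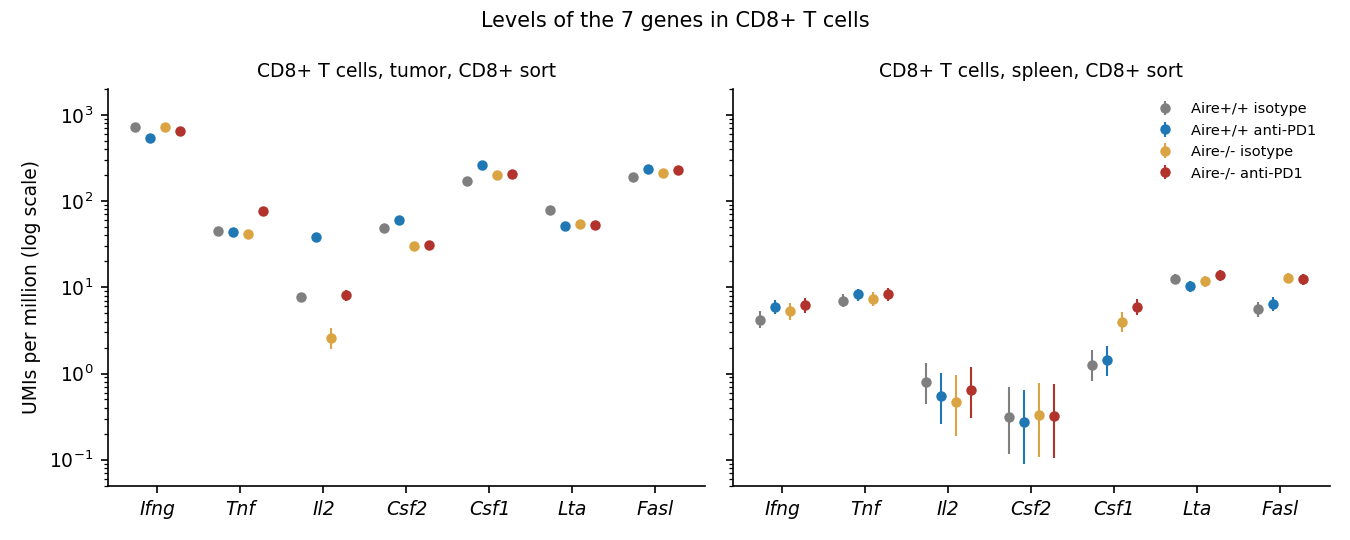
Level of each gene in CD8 T cells of the CD8+ sort, in CPM on a log axis, for the 4 conditions in tumor and spleen, with 95% counting intervals as bars. Tumor levels stand above splenic levels for each gene, and Il2 varies most between tumors.

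Il2 had the widest differences between conditions and the narrowest base of cells. Its level was 7.63, 38.1, 2.59 and 8.08 CPM, highest in the *Aire*+/+ anti-PD1 tumor. The genotype log2 ratio, *Aire*-/- over *Aire*+/+, was −1.56 (−2.01 to −1.13) with isotype and −2.24 (−2.47 to −2.01) with anti-PD1, and anti-PD1 over isotype was 2.32 (2.12 to 2.53) and 1.64 (1.20 to 2.11). The 249, 986, 55 and 184 UMIs behind these levels lay in 17, 17, 12 and 17 cells.

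A single cell held 78, 379, 29 and 69 of those Il2 UMIs, that is 31.3%, 38.4%, 52.7% and 37.5% of the total. Without the 10 cells with most Il2 on each side, the log2 ratio between genotypes under anti-PD1 was 0.19 (−1.55 to 1.93) and that of anti-PD1 in *Aire*+/+ mice 0.34 (−1.40 to 2.08). The share of thinned cells with an Il2 UMI was 0.639%, 0.591%, 0.484% and 0.657% (0.677%, 0.796%, 0.673% and 0.784% unthinned), with genotype ratios of 0.757 (0.322 to 1.78) and 1.11 (0.501 to 2.47), and macrophages gave 0%. Il2 thus differed in the amount found in a few cells, and no difference in the number of Il2 cells was detectable at this depth. The CD45+ sort gave 0, 3.37, 12.2 and 3.99 CPM, in another order.

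Csf2 stood between these extremes. Its level was 48.4, 61.0, 30.4 and 30.7 CPM, higher in both *Aire*+/+ tumors. The genotype log2 ratio was −0.67 (−0.80 to −0.54) with isotype and −0.99 (−1.12 to −0.86) with anti-PD1, and −0.99 and −0.94 without the 10 cells with most Csf2. The cells with a UMI numbered 227, 153, 95 and 106, and 50% of the UMIs lay in 15, 8, 9 and 8 of them.

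In the CD8+ sort fewer CD8 T cells of *Aire*-/- tumors had a Csf2 UMI. The thinned share was 5.66%, 5.31%, 3.75% and 3.72% (9.04%, 7.17%, 5.33% and 4.89% unthinned, 0% in macrophages), a ratio of 0.662 (0.493 to 0.889) with isotype and 0.700 (0.520 to 0.942) with anti-PD1. The CD45+ sort went the other way for the level, at 51.1, 15.4, 99.1 and 52.8 CPM and log2 ratios of 0.95 (0.57 to 1.35) and 1.78 (1.26 to 2.35). The genotype difference of Csf2 was therefore not shared by both sorts.

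**Figure D3:**
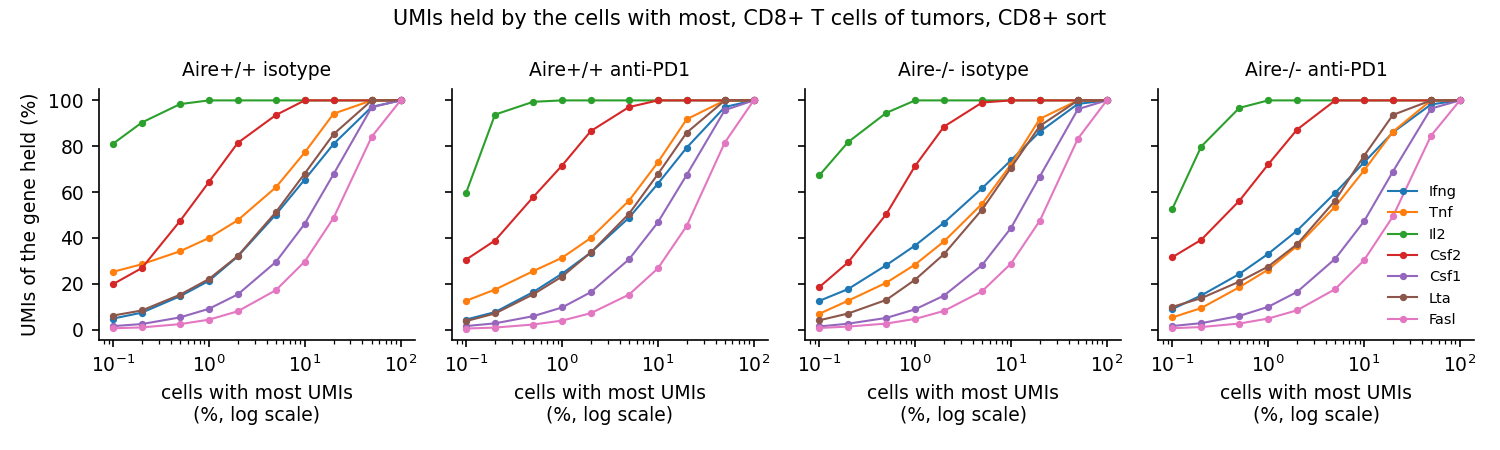
Cumulative percent of the UMIs of each gene in CD8 T cells of the CD8+ tumor libraries against the percent of cells, taken from the cell with most UMIs on, on a log axis, 1 panel for each condition. For Il2, 50% of the UMIs lay in 1 or 2 cells, and for Fasl in 384 to 521 cells.

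Counted over the 7 genes in the CD8+ sort, those with at least 1.5-fold change and at least 20 UMIs over the pair were few. Between genotypes under isotype 2 passed, Il2 and Csf2, both lower in *Aire*-/-, against 8.51% of all genes tested. Under anti-PD1 3 passed, Tnf higher and Il2 and Csf2 lower, against 8.07%. For anti-PD1 over isotype 3 passed in *Aire*+/+ mice, Il2 and Csf1 higher and Lta lower, against 6.69%, and 2 in *Aire*-/- mice, Il2 and Tnf higher, against 6.32%. By the share of cells with a UMI in place of the level, the counts were 1, 0, 0 and 0 of 7. Without the 10 cells with most UMIs of a gene on each side they were 1, 2, 2 and 1, since Il2, then under 20 UMIs over each pair, was not counted.

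In CD8 T cells of the CD45+ sort, with 127, 199, 206 and 708 cells, the counts were 4 of 7 (15.6% of all genes), 2 of 7 (14.5%), 5 of 6 (17.6%) and 2 of 7 (13.4%). Ifng, at 1291, 670.2, 818 and 728 CPM there, was among the genes past 1.5-fold for *Aire*-/- over *Aire*+/+ under isotype, with a log2 ratio of −0.66 (−0.75 to −0.57). Without the 10 cells with most Ifng it was 0.04. Anti-PD1 over isotype in *Aire*+/+ mice was −0.95 (−1.05 to −0.84), in the direction of the CD8+ sort, and −0.29 (−0.48 to −0.10) without those cells. Of the members called in the CD8+ sort, Tnf between genotypes under anti-PD1 and Csf1 with anti-PD1 in *Aire*+/+ mice also passed in the same direction in the CD45+ sort. Lta with anti-PD1 in *Aire*+/+ mice was a further such case, at −0.59 (−1.03 to −0.15). Past 1.5-fold in the opposite direction were Il2 and Csf2 between genotypes under isotype, Csf2 under anti-PD1, and Il2 with anti-PD1 in *Aire*-/- mice. The remaining members called in the CD8+ sort did not pass in the CD45+ sort or had too few UMIs there.

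Summed over the 7 genes the conditions were nearly level in the CD8+ sort. The sum was 1271, 1233, 1264 and 1264 CPM in CD8 T cells of the CD8+ sort, or 16.5, 14.9, 15.1 and 13.3 UMIs per cell. A lower Ifng level in *Aire*+/+ anti-PD1 cells stood beside higher Csf1, Fasl and Il2 levels. In CD8 T cells of the CD45+ sort the sum was not level, and Ifng alone ranged from 670.2 to 1291 CPM. The sum there was 1733 CPM (1665 to 1802) in *Aire*+/+ isotype and 1191 CPM (1144 to 1239) in *Aire*+/+ anti-PD1 cells. It was 1386 CPM (1340 to 1433) in *Aire*-/- isotype cells.

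The share of CD8 T cells with transcripts of 2 or more of the genes was likewise close across conditions in the CD8+ sort. At 5000 UMIs per cell it was 65.0% (63.0 to 66.9), 68.4% (66.3 to 70.4), 63.2% (60.9 to 65.6) and 66.7% (64.5 to 68.8), or 1527 of 2349, 1389 of 2032, 1046 of 1654 and 1219 of 1828 cells. Macrophages of the tumors gave 0.690%, 0.722%, 1.75% and 0.617% at that depth. The level of the share depends on which genes are counted: without Ifng it was 43.0%, 49.6%, 45.0% and 48.8%, and without Fasl 45.5%, 45.4%, 42.4% and 44.4%. The mean number of genes per CD8 T cell was 1.99, 2.07, 1.93 and 2.03.

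The genotype ratio of this share was 0.973 (0.928 to 1.02) with isotype and 0.976 (0.934 to 1.02) with anti-PD1. Anti-PD1 over isotype gave 1.05 (1.01 to 1.10) in *Aire*+/+ and 1.05 (1.0 to 1.11) in *Aire*-/- mice. Without thinning the shares were 82.4%, 83.5%, 80.7% and 80.1%, and the last ratio was 0.993. Leaving Fasl out of the count took the *Aire*+/+ ratio to 0.998, and leaving Csf1 out took it to 1.0. The small excess under anti-PD1 therefore did not keep its direction across these counts. With 4 other random draws in the thinning the *Aire*-/- isotype share was 63.7% to 65.3%, above the value reported, that of *Aire*-/- anti-PD1 was 65.6% to 67.0%, and their ratio was 1.01 to 1.03.

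In the CD45+ sort the shares were 51.8%, 58.0%, 61.1% and 62.9% (68.5%, 73.4%, 76.2% and 79.1% unthinned, with 17, 11, 16 and 104 cells left out). There they were higher in *Aire*-/- than in *Aire*+/+ tumors under each antibody, whereas in the CD8+ sort they were slightly lower. In the spleen the share was low: at 2000 UMIs per cell 0.252%, 0.321%, 0.486% and 0.917% of CD8+-sorted CD8 T cells had 2 or more genes, against 34.9%, 37.1%, 34.2% and 35.1% in tumors. Splenic B cells, which carry Lta and Tnf themselves, gave 0.508%, 0.506%, 0.227% and 0.297%. The 7, 9, 11 and 23 splenic cells gave a genotype ratio of 2.86 (1.33 to 6.17) under anti-PD1.

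**Figure D4:**
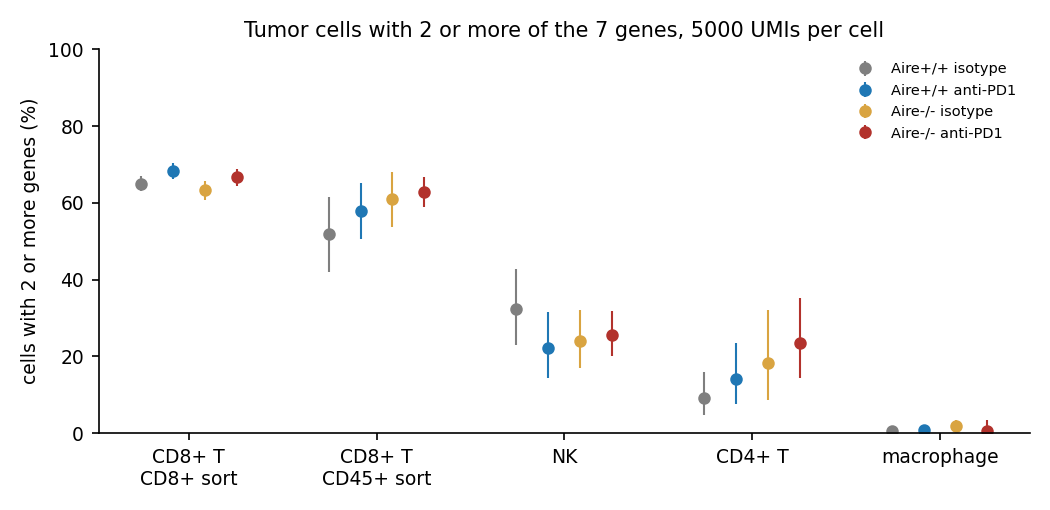
Share of cells, in percent, with at least 1 UMI of 2 or more of the 7 genes, by cell class and condition in tumor libraries, each cell thinned to 5000 UMIs, with 95% Clopper-Pearson intervals. CD8 T cells of the CD8+ sort lie between 63.2% and 68.4% in the 4 conditions, and macrophages between 0.617% and 1.75%.

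The commonest sets in the CD8+ sort were made of Ifng, Csf1 and Fasl. Among its CD8 T cells with 2 or more genes, those 3 together and no other made up 17.9%, 20.9%, 19.4% and 16.6%, and Ifng with Fasl 17%, 15%, 14.9% and 14.5%. Fasl was in 73.0%, 77.9%, 76.1% and 78.0% of the sets and Csf1 in 59.4%, 67.8%, 67.3% and 64.6%. Tnf was in 18.3%, 20.4%, 21.1% and 28.9%, highest in *Aire*-/- anti-PD1 cells. In the CD45+ sort Tnf was in 24.6%, 13.8%, 28.4% and 27.6% of the sets, highest in *Aire*-/- isotype cells, and the commonest set in *Aire*+/+ isotype cells was Ifng with Fasl.

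Some pairs met in the same cells more often than the rest. Cells with an Il2 UMI had a Csf2 UMI 8.17 to 12 times as often as cells without Il2 in the 4 CD8+ tumor libraries, with intervals apart in 4 of 4. Cells with Csf2 had Ifng 1.3 to 1.5 times and Lta 1.54 to 1.94 times as often, and cells with Ifng had Csf1 1.33 to 1.67 times as often, each apart in 4 of 4. Over the 8 tumor libraries of both sorts, these 4 pairs had intervals apart in 5, 4, 4 and 5, in the order given. Il2 cells were few, as given above, and had Csf2 more often in 5 of 8 libraries. Il2 cells had Csf1 less often, at 0.480 to 0.658 times, with intervals apart in 0 of 4. Cells thinned to 1 depth still differ in kind, and doublets were not removed by a caller.

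Cells with 2 or more of the genes differed from cells with none in other transcripts. Over 8 tumor libraries, 1527 against 247, 1389 against 174, 1046 against 199 and 1219 against 188 CD8 T cells were compared in the CD8+ sort and 57 against 21, 109 against 22, 116 against 23 and 380 against 70 in the CD45+ sort. Past 2-fold in all 8 libraries were 19 genes higher (0.131% of 14507) and 31 lower (0.214%). The 7 genes themselves chose the cells and are not counted.

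On the higher side stood the chemokines Ccl3, with a median log2 ratio of 3.67 and a smallest of 1.91, and Ccl1, with 3.61 and 1.58. The galectin gene Lgals3 had 1.71 and 1.33, and Ifitm1 1.45 and 1.24. These ratios have 1 CPM added to each side. Il13, a type 2 cytokine, was at 1.83 to 29.3 CPM in cells with 2 or more genes and at 0 in cells with none in the 8 libraries, so the CPM added sets its ratio, and it did not pass 2-fold in each library with 10 CPM added.

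On the lower side, Lef1 had a median log2 ratio of −3.23 (−3.04 nearest to 0) and Tcf7 one of −4.02 (−2.68). Igfbp4 was at 0 to 1.05 CPM in cells with 2 or more genes and 18.2 to 97.9 CPM in cells with none, Klf3 at 0 to 8.38 and 43.6 to 127 CPM and Fam101b at 0 to 2.79 and 16.1 to 68.6 CPM. Lef1 and Tcf7 encode partner factors of naive and stem-like T cells. Of 12 other lymphocyte cytokines with at least 200 UMIs, Ccl3 was higher in all 8 libraries, as was Il13 with 1 but not with 10 CPM added, where 0.233% of 8155 genes with as many UMIs were higher. Of 20 transcription factors Eomes was lower, against 0.282% of those genes.

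NK cells, 107, 130, 156 and 270 in the tumors, carried Ifng and Fasl. Fasl in NK cells was 144, 177, 178 and 171 CPM in tumors and 254, 272, 231 and 308 CPM in spleens, lower in tumor without overlap, as for 27% of 10060 genes. This is a level relative to all UMIs: 107, 130, 156 and 270 tumor NK cells held 239, 309, 347 and 628 Fasl UMIs, more per cell than the 86, 60, 74 and 75 UMIs of 84, 49, 60 and 54 splenic NK cells. Of 5 genes tested in NK cells, Fasl was lower, and Tnf and Lta were higher in tumor, as for 11.7% of all genes. A share of 1 in 5 lower is near that of all genes.

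Ifng in tumor NK cells was 260.1, 98.0, 131 and 180.5 CPM. The genotype log2 ratio was −0.99 (−1.22 to −0.76) with isotype and 0.88 (0.64 to 1.13) with anti-PD1. A single *Aire*+/+ isotype cell held 205 of 432 Ifng UMIs, and without the cell with most UMIs on each side the ratios were −0.25 (−0.52 to 0.02) and 1.07. The difference under isotype thus rests on 1 cell. The share of NK cells with an Ifng UMI was 39.8%, 31.3%, 30.6% and 28.7% after thinning (56.1%, 39.2%, 44.2% and 40% unthinned), a genotype ratio of 0.769 (0.538 to 1.10) with isotype and 0.916 (0.642 to 1.31) with anti-PD1. The higher Ifng level of *Aire*-/- NK cells under anti-PD1 came without a detectable difference in the share of cells with the transcript.

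Csf2 in NK cells lay in 67, 1, 1 and 105 UMIs, found in 6, 1, 1 and 8 cells, so its levels of 40.3, 0.573, 0.512 and 28.5 CPM describe few cells. Lta in NK cells was 43.3, 21.8, 17.4 and 20.9 CPM, highest in *Aire*+/+ isotype as in CD8 T cells. Tnf was 9.03, 9.17, 12.3 and 14.4 CPM and Il2 was 0 in the 4 tumor libraries. The share of NK cells with 2 or more of the genes was 32.3%, 22.2%, 23.9% and 25.7% (56.1%, 40.8%, 45.5% and 44.1% unthinned, with 14, 31, 22 and 40 cells left out and medians of 10204, 8785, 9348 and 9505 UMIs).

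CD4 T cells were few, 141, 106, 59 and 96 in the tumors, and 116, 71, 29 and 57 of them had a UMI of Foxp3, the regulatory T cell factor. In cells with Foxp3, Csf1 was 37.1, 58.9, 52.9 and 96.5 CPM, Fasl 30.1, 35.6, 38.2 and 33.4 CPM and Tnf 27.8, 27.0, 29.4 and 33.4 CPM. The highest of these Csf1 levels, in *Aire*-/- anti-PD1 tumors, had 16 of its 55 UMIs in 1 cell. Ifng was 4.64, 14.7, 2.94 and 12.3 CPM there, and Il2 was 0.

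In CD4 T cells without Foxp3, 25, 35, 30 and 39 cells, Fasl was 126, 152, 57.1 and 196 CPM and Ifng 32.8, 18.4, 125 and 82.2 CPM. The Csf2 of this group in *Aire*-/- isotype tumors, 334 UMIs in 3 cells, had 329 in 1 cell, and that cell made up most of the 54.3% of all Csf2 UMIs of the library that this group held. The share of CD4 T cells with 2 or more genes was 9.24% (4.70 to 15.9), 14.1% (7.51 to 23.4), 18.4% (8.76 to 32.0) and 23.6% (14.4 to 35.1) (18.4%, 24.5%, 25.4% and 26.0% unthinned, with 22, 21, 10 and 24 cells left out and medians of 8354, 7387, 7530 and 7302 UMIs). The 4 intervals overlap.

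Macrophages carried Tnf. Tnf in macrophages was 193, 235, 252 and 249 CPM, found in 44.0%, 46.1%, 48.4% and 42.6% of thinned cells. Other myeloid cells had 125, 132, 153 and 155 CPM. Relative to all UMIs of the class, Tnf in macrophages was thus lowest in *Aire*+/+ isotype tumors, with differences under 1.5-fold. By the thinned share of cells it was lowest in *Aire*-/- anti-PD1 tumors. The 1046, 707, 471 and 167 macrophages held 3195, 2644, 1929 and 516 Tnf UMIs. Csf1 in macrophages was 6.35, 3.56, 7.83 and 2.90 CPM, and Csf2 and Il2 were 0. The splenic macrophage gate held too few cells for values.

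Receptor genes for Csf1, Csf2, Tnf and Ifng were present in tumor macrophages. Csf1r, the receptor for Csf1, was 489, 500.1, 496 and 445 CPM in tumor macrophages, and Csf2ra, a chain of the GM-CSF receptor, 332, 295, 310.0 and 280.3 CPM. Csf2rb, its shared signalling chain, was 126, 121, 170.3 and 214 CPM, and Tnfrsf1a, the main TNF receptor, 207, 185, 243 and 215 CPM. The interferon gamma receptor chains Ifngr1 and Ifngr2 stood at 170.1 to 181 CPM and 148 to 190.2 CPM in the 4 tumors. Csf1 itself had most of its UMIs in CD8 T cells in 3 of the 4 tumors, the exception being *Aire*+/+ isotype.

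Genes known to be induced by interferon gamma were higher in macrophages of *Aire*-/- tumors. Cxcl9, a chemokine for T cells, was 171, 341, 539.5 and 917 CPM, with log2 ratios over *Aire*+/+ of 1.66 under isotype and 1.43 under anti-PD1. Nos2, which makes nitric oxide, was 19.2, 17.9, 36.4 and 114 CPM. Both were lower in *Aire*+/+ tumors under each antibody.

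Ciita, the regulator of MHC class II genes, was 18.2, 16.7, 36.9 and 54.6 CPM, and Socs1, a feedback inhibitor of the pathway, 107, 90.5, 188 and 206 CPM. Of 13 such genes tested, 10 were higher past 1.5-fold and 0 lower under isotype, where 6.18% of all genes were higher, and 10 were higher under anti-PD1, against 7.87%. The median log2 ratio of the list was 0.67 and 0.94. Anti-PD1 over isotype gave 1 of 13 higher in *Aire*+/+ mice (3.52% of all genes) and 2 of 13 in *Aire*-/- mice (5.23%). Some genes of the list were chosen with earlier results of these data known, so its count is no independent support.

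In the libraries these macrophages came from, CD8 T cells and macrophages numbered 127 and 1046, 199 and 707, 206 and 471, and 708 and 167. Ifng in those CD8 T cells was at 1291, 670.2, 818 and 728 CPM. The part of either in the macrophage levels was not tested.

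The promoters of the 7 genes were read from RefSeq on GRCm38.p6, 250 bases before to 50 bases after each start, and 7 of 7 were matched. The sequences were searched on both strands. The AP-1 sequence TGANTCA was in 0 of 7 and in 7.81% of 32851 promoters, the NFAT core GGAAA in 7 of 7 and 61.3%, and the T-box sequence TCACAC in 1 of 7 and 14.5%. The TATA box TATAAA was in 4 of 7, Ifng, Tnf, Il2 and Lta, and in 13.6% (the Lta match lay farther out, at −167, from a start inside the span of the gene), and the kappa-B form GGGNNTTTCC in 1 of 7, Csf1, and in 1.63%. A match is a description, and the kappa-B form holds the reverse of the NFAT core.

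The 160 bases upstream of the start are shown for 3 genes with a TATA box and for Csf1, which has none, because these differ in how widely CD8 T cells carried them. Matches to any sequence searched are in capitals, and each is written 5′ to 3′ on the strand of the gene. Ifng lies on chr10:118440886-118441045 (+), with TATAAA from base −30, Tnf on chr17:35202008-35202167 (−), from −29, Il2 on chr3:37125955-37126114 (−), from −31, and Csf1 on chr3:107760470-107760629 (−), with the kappa-B form on the other strand from −154.
Ifng: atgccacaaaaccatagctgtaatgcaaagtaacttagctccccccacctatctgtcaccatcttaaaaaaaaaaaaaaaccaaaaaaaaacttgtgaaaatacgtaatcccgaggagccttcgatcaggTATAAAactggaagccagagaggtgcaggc
Tnf: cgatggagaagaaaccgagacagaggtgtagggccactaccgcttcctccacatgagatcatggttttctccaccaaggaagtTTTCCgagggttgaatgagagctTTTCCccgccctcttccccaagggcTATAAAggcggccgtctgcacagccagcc
Il2: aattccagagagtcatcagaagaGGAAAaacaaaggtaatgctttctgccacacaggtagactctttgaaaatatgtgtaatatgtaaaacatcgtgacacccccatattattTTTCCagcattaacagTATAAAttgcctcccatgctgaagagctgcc
Csf1: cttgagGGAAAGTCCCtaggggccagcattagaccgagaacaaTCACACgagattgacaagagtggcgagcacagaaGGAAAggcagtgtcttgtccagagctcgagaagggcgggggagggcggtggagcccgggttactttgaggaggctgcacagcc

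Tnf and Lta are neighbours on chromosome 17, both on the reverse strand, with 1157 bases between the end of Lta and the start of Tnf. In tumor CD8 T cells of the CD8+ sort the neighbours had different orders, with Tnf highest in *Aire*-/- anti-PD1 and Lta in *Aire*+/+ isotype cells, whereas in the CD45+ sort both were highest in *Aire*+/+ isotype cells. They parted by cell class too: macrophages had Tnf and at most 1 UMI of Lta per library, and splenic B cells had Lta at 48.3, 46.4, 40.1 and 48.2 CPM and Tnf at 15.2, 8.78, 13.4 and 14.7 CPM.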

How the data were processed

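Raw UMI counts per gene and cell barcode, as deposited by the authors (Cell Ranger, GRCm38, 3′ tags per the labels while the methods of the paper also name a 5′ kit, which was not resolved, barcodes called as cells), were read for 16 libraries. Of 37609 barcodes, 37453 had at least 200 genes and at most 20% mitochondrial UMIs. Libraries were compared in 120 pairs, which shared 2 to 18 barcodes (median 7, at most 0.840% of the smaller library). Rows of 1 symbol were summed and 27 vector rows dropped. Cells were gated on UMIs of Cd3, Cd8, Cd4, Ncr1 and Klrb1c, C1q and Cd79 genes, with no doublet caller. Levels are UMIs summed over a class per 1e6 UMIs, with exact Poisson intervals and conditional exact intervals for ratios. A side at 0 was set to 3 UMIs. A gene was counted past 1.5-fold with at least 20 UMIs over the pair. Shares used cells thinned to 5000 UMIs (2000 where spleen was included), with Clopper-Pearson intervals. Besides the 7 genes, list members with most UMIs were named (the macrophage examples were chosen otherwise, after their values were seen), and 5 genes in each direction with the widest smallest ratio over 8 libraries. Members and lists were chosen with earlier results of these data known. With 1 library for each condition no test between conditions was made, and Dixon's limit, used below, only flags libraries that stand apart. Python 3.11.15, numpy 2.4.6, scipy 1.17.1, pandas 2.3.3 and matplotlib 3.10.9 were used, and the steps were tested on simulated data.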

Additional observations from a re-analysis of the deposited data

Results flagged for a closer look

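In groups of 4 libraries, the gap between the extreme library and its nearest neighbour was divided by the range of the group, and 5 of 45 groups passed Dixon's 95% limit for 4 values. Chance passes about 1 in 20 such groups. In CD8 T cells of the CD8+ tumor sort these were Tnf, with *Aire*-/- anti-PD1 far above the others (0.900), Il2, with *Aire*+/+ anti-PD1 highest (0.845), and Lta, with *Aire*+/+ isotype highest (0.908). In tumor CD4 T cells Csf2 stood apart in *Aire*-/- isotype (0.966), where 1 cell held 329 of 334 UMIs. In tumor NK cells Lta stood apart in *Aire*+/+ isotype (0.831). The 4 libraries are 4 conditions, so a library apart from the rest cannot be told apart from a condition.

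In tumor NK cells the genotype ratio pointed down under isotype and up under anti-PD1 for Ifng, 1.87 apart on the log2 scale, and for Csf2, 11.94 apart. These differences between the antibody groups were not tested. Without the cell with most Ifng on each side the Ifng ratios were −0.25 and 1.07. The Csf2 UMIs lay in 6, 1, 1 and 8 cells.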

How the results depend on the processing

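Of 988 alternative values for single-gene ratios, 787 stayed within the interval of the value reported, 177 moved and 24, all for ratios past 1.5-fold, changed sign. Sign changes of ratios within 1.5-fold are not in that 24 and are not listed below. Csf2 for anti-PD1 over isotype in CD8 T cells was such a case. In *Aire*+/+ mice its log2 ratio was 0.33 in the CD8+ sort and −1.73 in the CD45+ sort. In *Aire*-/- mice it was 0.01 and −0.91. Of 224 for levels 206 stayed within it and 18 moved. Of 80 for the shares with 2 or more genes 39 stayed within it and 41 moved. Of 146 for the remaining results 119 stayed within it, 24 moved and 3 were counted as changed in direction. More ratios of shares than these 3 crossed 1, as given below. The counts of the 7 genes past 1.5-fold in CD8 T cells, 2, 3, 3 and 2 in the order given in the report, were 4 (*Aire*-/- over *Aire*+/+, isotype) and 5 (anti-PD1 over isotype, *Aire*+/+) in the CD45+ sort. They were 1, 1, 1 and 1 past 2-fold and 5 past a lower fold (anti-PD1 over isotype, *Aire*+/+). The following alternatives were chosen after seeing the data: without the 1 cell or the 10 cells with most UMIs of the gene, and the share of cells with a UMI. Without 10 cells the count was 1 for *Aire*-/- over *Aire*+/+ under isotype and 1 for anti-PD1 over isotype in *Aire*-/- mice, and by shares of cells the counts were 1, 0, 0 and 0.

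The single log2 ratios counted above as changed in sign are listed here, those in CD8 T cells before the others. CD45+ sort values between genotypes under isotype were Il2 (2.56 with 0 UMIs in *Aire*+/+ set to 3, lower limit 2.17) and Csf2 (0.95). Under anti-PD1 they were Il2 (0.24) and Csf2 (1.78), and for anti-PD1 in *Aire*-/- mice Il2 (−1.61). Il2 between genotypes under anti-PD1 was 0.19 without 10 cells and 0.15 by shares, and for anti-PD1 in *Aire*+/+ mice −0.11 by shares. Within the CD45+ sort, Ifng between genotypes under isotype was 0.0262 without cells over 2 times the median UMIs and 0.0371 without 10 cells, Tnf for anti-PD1 in *Aire*+/+ mice 0.86 and Csf2 in *Aire*-/- mice 0.69 without 10 cells. In CD4 T cells, Csf1 between genotypes under isotype was −1.24 without 10 cells and −0.13 by shares, and Ifng under anti-PD1 −0.0236 by shares. For anti-PD1 in *Aire*-/- CD4 T cells, Ifng was 0.0523 as a mean over cells, 0.35 without cells of high UMI number and 0.068 without 1 cell, Il2 0.26 and 0.45 for the last 2 settings, Csf2 0.94 without cells of high UMI number, and Fasl −0.14 by shares. In NK cells between genotypes under anti-PD1, Ifng was −0.13 by shares and Tnf −0.12 with loose gates. The causes were not tested. Few cells held the UMIs of Il2.

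The ratio of shares with 2 or more genes between genotypes under isotype was 1.18 in the CD45+ sort, 1.05 without Ifng and 0.912 without Csf1, and under anti-PD1 1.08 in the CD45+ sort. For anti-PD1 in *Aire*+/+ mice it was 1.10 with at least 2 UMIs of a gene, 1.12 in the CD45+ sort, 1.15 without Ifng, 1.0 without Csf1 and 0.998 without Fasl, and in *Aire*-/- mice 0.992 at 8000 UMIs and 0.993 without thinning. The 50 genes past 2-fold between cells with 2 or more and none were 22 at 2000 UMIs, 31 with 10 CPM added and 156 in the CD8+ sort.

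Limits: each condition had 1 library per tissue and sort, from pooled animals, so differences between pools and between conditions cannot be told apart. Counting intervals treat UMIs of 1 cell as independent and are too narrow wherever few cells hold the UMIs. This was so for Il2 and Csf2, for Ifng in both sorts, and for Tnf in the CD45+ sort. Low levels in the spleen and in NK, CD4 T and macrophage cells rest on few UMIs.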

Other observations

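Splenic CD8 T cells of the CD8+ sort had Csf1 UMIs in 0.216%, 0.285%, 0.530% and 1.36% of cells thinned to 2000 UMIs, and Fasl UMIs in 1.22%, 1.64%, 2.52% and 2.47%. B cells of the spleen, from the CD45+ sort, had Csf1 UMIs in 0.508%, 0.867%, 0.303% and 0.476% at that depth, so the 3 lower Csf1 shares lie within or under the range of B cells.

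In *Aire*-/- anti-PD1 tumor macrophages Il6 was 9.67 CPM, against 0.979 CPM in *Aire*+/+ anti-PD1 macrophages, from 20 and 11 UMIs.

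The Ifng UMIs of 1 CD8 T cell in the *Aire*-/- isotype tumor numbered 1256.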
